A study of Mus musculus with 4 samples.

Results

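The enzymes that make serine and pass its carbon into the folate cycle were followed here through their transcripts, with 10 genes chosen by name from the 13881 genes of the table: Phgdh, Psat1, Psph, Shmt1, Shmt2, Mthfd1, Mthfd1l, Mthfd2, Aldh1l1 and Asns. All 10 were found. RNA came from neural progenitor cells of C57BL/6 mouse forebrain, taken at embryonic day 14 and kept dividing in a medium with 2% B27 supplement, 20 ng/ml EGF and 20 ng/ml FGF-2. In 2 libraries the cells carried a lentiviral short hairpin RNA against Rybp, a subunit of Polycomb repressive complex 1 (the shRybp group), and 2 libraries were labelled as controls, whose vector the sources used here do not give. Both groups share strain, stage and medium. The labels do not tie the replicates to separate cultures or animals, so p-values measure the spread between these libraries only, which may be technical. The comparison asks which of these enzymes differ in transcript level when Rybp is depleted.

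Serine is built from an intermediate of glycolysis by phosphoglycerate dehydrogenase (Phgdh), phosphoserine aminotransferase (Psat1) and phosphoserine phosphatase (Psph). Serine hydroxymethyltransferases, Shmt2 in mitochondria and Shmt1 in the cytosol, then move a carbon unit from serine onto tetrahydrofolate and release glycine. In mitochondria Mthfd2 and Mthfd1l turn that unit into formate, and in the cytosol Mthfd1 takes formate up again for purine and thymidylate synthesis, while Aldh1l1 oxidises formyl-tetrahydrofolate to carbon dioxide. Aldh1l1 is widely used as a marker of astrocytes, and Mthfd2 is known as an enzyme of dividing cells. Asns, which makes asparagine, shares with Phgdh, Psat1, Shmt2 and Mthfd2 a known dependence on the transcription factor Atf4.

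Counts per library were between 14355308 and 17598873. Levels are given in FPKM (fragments per kilobase of transcript, scaled to library size). Rybp fell from 4.43 and 3.95 FPKM in the controls to 3.01 and 2.66 in the shRybp libraries. In the fit 65.8% of its control level remained (edgeR adjusted p = 0.0017). Of 8 neural progenitor markers 7 were tested, and Vim and Nes rose (log2 fold change of shRybp over control, or log2 change, 0.27 and 0.67) while Fabp7 (-0.61), Msi1 (-0.57) and Sox2 (-0.46) fell, with summed levels of 3016 and 2752 FPKM in control and 2414 and 2324 in shRybp. Of the markers of other cells, 6 of 8 microglia markers and 5 of 8 endothelial and mural markers were not among the genes of the table, which each hold at least 40 counts. Astrocyte markers were present in the control cultures and fell, 12 of 12 tested (Gjb6 was below the level tested), with summed levels of 895 and 925 FPKM in control against 376 and 403 in shRybp. Of 12 S phase genes 11 rose, with summed levels of 583 and 555 against 844 and 829 FPKM. Among all genes tested 16.3% rose and 16.7% fell. In such bulk RNA, fewer cells of a type and less RNA per cell cannot be told apart.

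The mitochondrial folate enzymes Shmt2, Mthfd2 and Mthfd1l rose in shRybp, as did Asns, Shmt1 and Psat1, while Aldh1l1 and Psph fell and the levels of Phgdh and Mthfd1 did not pass the test. All 10 genes were tested, and 6 rose and 2 fell, where of the 12062 genes tested 16.3% rose and 16.7% fell, together 33.0%. The median log2 change of the 10 genes was 0.34, against 0.00 for all genes tested. For 9 of the 10 the library values of control and shRybp were fully apart, as for 67.5% of all genes tested. A gene is said to have risen or fallen only if its edgeR quasi-likelihood test had an adjusted p under 0.05 over all genes tested.

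In the controls the enzymes spanned a wide range of FPKM. Phgdh (98.1 ± 3.29, SD, n = 2), Psat1 (92.0 ± 3.69) and Aldh1l1 (91.3 ± 2.42) were the highest, each above at least 96.7% of the genes tested, and the library values of Psat1 and Aldh1l1 overlapped while those of Phgdh lay above both. Mthfd1 (37.9 ± 2.36) and Shmt2 (34.6 ± 2.26) followed, and met at 36.2. Asns (15.8 ± 0.65), Mthfd1l (12.2 ± 0.74), Shmt1 (10.8 ± 0.27), Psph (8.74 ± 0.59) and Mthfd2 (6.68 ± 0.22) came last, and no neighbours among these 5 overlapped. In shRybp Psat1 stood first at 111 ± 0.97, Shmt2 lay above Mthfd1, and Psph, at 7.19 ± 0.08, was lowest, below Mthfd2 at 13.9 ± 0.20.

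**Figure D1:**
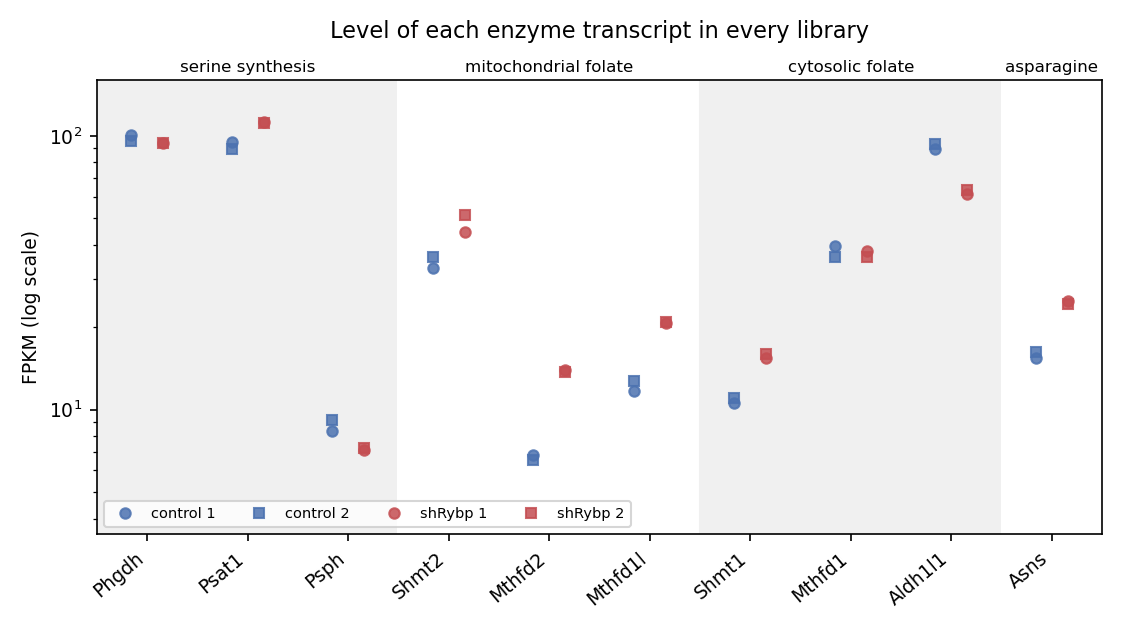
Level of each of the 10 transcripts in the 4 libraries, in FPKM on a log axis, grouped by role (circles replicate 1, squares replicate 2, blue control, red shRybp). Libraries of a group lie close together, and Mthfd2 shows the widest gap between groups, from 6.52 and 6.83 to 13.7 and 14.0.

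Serine synthesis showed no common direction. Phgdh, the first enzyme of the route (mm10 chromosome 3, 98313170 to 98339990, minus strand), had 100.4 and 95.8 FPKM in control and 94.0 and 94.2 in shRybp. Both shRybp values lay just under the controls, and the difference did not pass the test (log2 change -0.10, SE 0.06, 95% interval -0.23 to 0.03, edgeR adjusted p = 0.24). Phgdh has 22 near-identical copies in the annotation (at least 90% identity over 200 bases or more), nearly all processed pseudogenes, so its counts depend on how shared reads were assigned. The copy with counts in the table, Gm7901, is 98.7% identical over 1597 bases and varied between libraries of one group, with 78 and 109 counts in control and 197 and 71 in shRybp.

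Psat1, the aminotransferase of the second step (chromosome 19, 15904678 to 15947337, minus strand), had 94.6 and 89.4 FPKM in control and 112 and 111 in shRybp. Both shRybp libraries lay above both controls, and the fitted rise was 1.18-fold (log2 change 0.24, SE 0.06, 95% interval 0.10 to 0.37, edgeR adjusted p = 0.011), and the call was lost without control replicate 2 (log2 change 0.19, edgeR adjusted p = 0.098). Psph, which removes the phosphate in the last step (chromosome 5, 129765558 to 129787449, minus strand), had 8.32 and 9.16 FPKM in control and 7.13 and 7.24 in shRybp. It fell to 80.3% of control (log2 change -0.32, SE 0.09, 95% interval -0.51 to -0.13, edgeR adjusted p = 0.015). That call was lost without control replicate 2 (-0.26, edgeR adjusted p = 0.098), without shRybp replicate 1 (-0.31, edgeR adjusted p = 0.0502) and in DESeq2 (-0.32, adjusted p = 0.0588). Psph shares 452 bases of annotation with Cct6a on the opposite strand, which rose (log2 change 0.21), and with the strand setting unknown, reads of these bases cannot be told apart. The ratio of Psat1 to Phgdh in FPKM went from 0.942 and 0.933 in control to 1.19 and 1.17 in shRybp.

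All 3 mitochondrial enzymes among the 10 genes rose. Shmt2, which feeds serine carbon into mitochondrial folate (chromosome 10, 127517123 to 127522444, minus strand), had 33.0 and 36.2 FPKM in control and 44.5 and 51.4 in shRybp. It rose 1.35-fold (log2 change 0.44, SE 0.08, 95% interval 0.27 to 0.60, edgeR adjusted p = 9.9e-04), with the widest spread between shRybp libraries among the 10 genes. Mthfd1l, the formate-releasing enzyme at the end of the mitochondrial branch (chromosome 10, 3973118 to 4167081, plus strand), had 11.7 and 12.7 FPKM in control and 20.7 and 20.9 in shRybp. It rose 1.67-fold (log2 change 0.74, SE 0.07, 95% interval 0.58 to 0.89, edgeR adjusted p = 1.3e-05).

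Mthfd2, the dehydrogenase and cyclohydrolase between them (chromosome 6, 83305691 to 83325908, minus strand), changed most of the 10. It had 6.83 and 6.52 FPKM in control and 14.0 and 13.7 in shRybp, from 420, 363, 703 and 787 counts. The libraries of each group nearly coincided, and the level rose 2.03-fold (log2 change 1.02, SE 0.09, 95% interval 0.83 to 1.21, edgeR adjusted p = 3.9e-06), the 68th largest rise of the 12062 genes tested. Its paralogue Mthfd2l did not pass (3.69 ± 0.28 and 3.56 ± 0.04 FPKM, log2 change -0.09, 95% interval -0.30 to 0.11, edgeR adjusted p = 0.49).

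**Figure D2:**
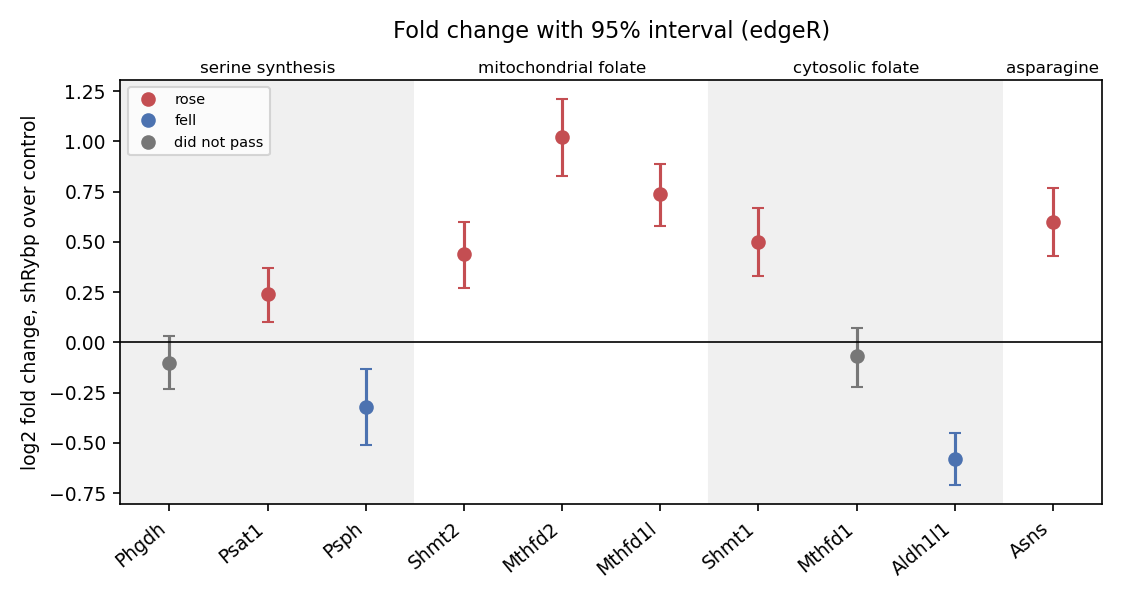
Log2 change of shRybp over control for each gene with its 95% interval from edgeR (red rose, blue fell, grey did not pass), grouped by role. The intervals of the 3 mitochondrial enzymes lie above 0, from 0.27 upward, and that of Aldh1l1 lies below it, from -0.71 to -0.45.

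Of the cytosolic enzymes 1 rose, 1 fell and 1 did not pass. Shmt1 (chromosome 11, 60788104 to 60811718, minus strand), the cytosolic hydroxymethyltransferase, had 10.6 and 11 FPKM in control and 15.4 and 15.9 in shRybp. It rose 1.41-fold (log2 change 0.50, SE 0.08, 95% interval 0.33 to 0.67, edgeR adjusted p = 4.7e-04). It shares 184 bases with Smcr8 on the opposite strand, whose own level did not pass the test (log2 change -0.02, edgeR adjusted p = 0.87). Both hydroxymethyltransferases rose, and the FPKM ratio of Shmt2 to Shmt1 overlapped between groups, at 3.11 and 3.30 in control and 2.89 and 3.24 in shRybp.

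Mthfd1, the trifunctional cytosolic enzyme (chromosome 12, 76255298 to 76319803, plus strand), had 39.5 and 36.2 FPKM in control and 37.8 and 36 in shRybp. The groups overlapped and the difference did not pass (log2 change -0.07, SE 0.07, 95% interval -0.22 to 0.07, edgeR adjusted p = 0.44). Aldh1l1, the formyl-tetrahydrofolate dehydrogenase (chromosome 6, 90486427 to 90600203, plus strand), had 89.6 and 93.0 FPKM in control and 61.4 and 63.5 in shRybp. Both shRybp libraries lay below both controls, and the fitted level fell to 66.8% of control (log2 change -0.58, SE 0.06, 95% interval -0.71 to -0.45, edgeR adjusted p = 1.7e-05). The 12 astrocyte markers named above, a list without Aldh1l1, had log2 changes from -2.61 (Apoe) to -0.33 (S100b) with a median of -1.0, and their part in the fall of Aldh1l1 was not tested.

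Sums over each branch differed in direction. The summed FPKM of Shmt2, Mthfd2 and Mthfd1l was 51.5 and 55.5 in control and 79.2 and 86.1 in shRybp, a ratio of group means of 1.54. That of Shmt1, Mthfd1 and Aldh1l1 fell short of the controls, at 115 and 115 against 139.7 and 140.1, a ratio of 0.822. Aldh1l1, the member that fell, made up 91.3 of the mean 139.9 FPKM in control and 62.5 of 115 in shRybp. Of the others Shmt1 rose and Mthfd1 did not pass. The mitochondrial sum was 0.382 ± 0.0189 of the cytosolic sum in control and 0.718 ± 0.0386 in shRybp. The Mthfd2 to Mthfd1 ratio alone went from 0.173 and 0.180 to 0.371 and 0.381. With 2 libraries a group an exact permutation test of such a ratio cannot give a two-sided p below 0.333, which is what the sums and ratios here gave except that of Shmt2 to Shmt1 (0.667), so they stand as descriptions. The summed level of S phase genes was 1.47 times that of control in shRybp, and that of the astrocyte markers 0.428 times. The part of either in these ratios was not tested.

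**Figure D3:**
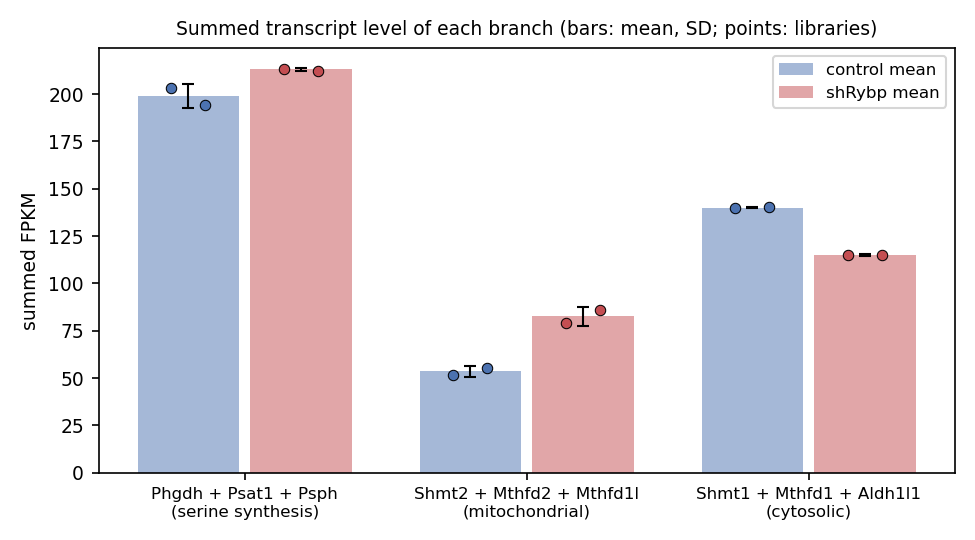
Summed FPKM of the serine synthesis, mitochondrial and cytosolic enzymes in control (blue) and shRybp (red), as bars for the mean of 2 libraries with the SD and points for the libraries. The mitochondrial sum is 53.5 in control and 82.6 in shRybp, the cytosolic sum 139.9 and 115, and the serine synthesis sum 199 and 213.

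Asns, the asparagine synthetase (chromosome 6, 7675169 to 7693254, minus strand), had 15.4 and 16.3 FPKM in control and 24.9 and 24.4 in shRybp. Both shRybp libraries lay above both controls, and the fitted rise was 1.52-fold (log2 change 0.60, SE 0.08, 95% interval 0.43 to 0.77, edgeR adjusted p = 1.1e-04). Its promoter is shown because Asns and Mthfd2 rose together and are both known to respond to Atf4 through C/EBP-ATF response elements, and that of Aldh1l1 because it fell. Each runs from 250 bases before the RefSeq start to 50 after it (GRCm38.p6), 5′ to 3′ on the gene's strand, with matches to the core TGATGNAA on either strand in capitals.
Asns, chr6:7693160-7693459, minus strand: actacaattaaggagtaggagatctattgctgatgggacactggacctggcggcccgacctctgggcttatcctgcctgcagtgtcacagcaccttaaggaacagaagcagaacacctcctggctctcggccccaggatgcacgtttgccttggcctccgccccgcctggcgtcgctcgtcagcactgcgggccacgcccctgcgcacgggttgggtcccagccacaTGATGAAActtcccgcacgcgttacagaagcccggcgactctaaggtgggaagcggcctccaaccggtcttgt
Mthfd2, chr6:83317555-83317854, minus strand: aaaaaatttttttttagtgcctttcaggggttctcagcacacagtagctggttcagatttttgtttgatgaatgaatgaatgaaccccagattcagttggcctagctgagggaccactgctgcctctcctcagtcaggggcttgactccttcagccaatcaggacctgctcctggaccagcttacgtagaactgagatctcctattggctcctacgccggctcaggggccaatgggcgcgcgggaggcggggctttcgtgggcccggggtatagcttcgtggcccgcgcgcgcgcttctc
Aldh1l1, chr6:90550543-90550842, plus strand: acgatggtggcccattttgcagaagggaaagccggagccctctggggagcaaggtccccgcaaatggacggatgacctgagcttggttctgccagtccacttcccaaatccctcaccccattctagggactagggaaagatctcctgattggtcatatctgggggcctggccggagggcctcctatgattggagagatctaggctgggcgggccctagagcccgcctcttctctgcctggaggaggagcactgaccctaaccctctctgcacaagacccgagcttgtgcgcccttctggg

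The core was found in 1 of the 11 promoter windows of the 10 genes (Psat1 has 2 starts in RefSeq), that of Asns, where TGATGAAA lies 23 to 16 bases before the start, and in 3.97% of all 32851 windows. The windows of Mthfd2 and Aldh1l1 do not hold these letters. The RefSeq starts of Mthfd2 and Aldh1l1, and also those of Psat1 and Shmt1, lie inside the gene spans given above. Other starts of these genes were not searched. The E-box CACGTG, a site known for Myc, was in 0 of the 11 windows and in 7.15% of all. The GC box GGGCGG was in 7 of the 11 and in 35.7% of all, and the antioxidant response element core TGACNNNGC, known for Nfe2l2, in 3 of the 11 (Phgdh, Psph and Asns) and in 12.4% of all. The motifs were searched on both strands. In the windows shown, a GC box was found in Asns, which rose, and in Aldh1l1, which fell, but not in Mthfd2, which rose too.

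Of the regulators known for these genes, Atf4 rose a little, from 58.9 and 57.8 FPKM to 72.2 and 68.0 (log2 change 0.23, SE 0.06, edgeR adjusted p = 0.014), a call lost without control replicate 2 (edgeR adjusted p = 0.0759) and without shRybp replicate 1 (edgeR adjusted p = 0.111). Nfe2l2, the antioxidant response factor, rose from 32.6 and 32.8 to 41.9 and 42.2 FPKM (log2 change 0.33, SE 0.06, edgeR adjusted p = 0.0013). Myc had 39.6 and 38.1 FPKM in control and 44.7 and 45.8 in shRybp (log2 change 0.18, edgeR adjusted p = 0.043), and lost the call without any 1 of the 4 libraries (edgeR adjusted p from 0.0626 to 0.234), in DESeq2 (adjusted p = 0.116), in limma after quantile normalization (0.0700) and with only genes of at least 5 FPKM (0.0511). Mycn stayed low, at 1.27 ± 0.11 and 1.52 ± 0.04 FPKM, and did not pass (edgeR adjusted p = 0.37). These are transcript levels, and Atf4 is known to be controlled mainly in translation.

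The amino acid response is the programme that Atf4 drives. The list used for it is wider, and also holds Atf4 itself and the kinase genes Eif2ak3 and Eif2ak4. Of 33 listed 25 were tested, and 9 rose and 3 fell (48.0% called, against 33.0% of all genes), with a median log2 change of 0.13. Atf4, given above, and Eif2ak3 are among the 9 that rose. The arginine and lysine transporter gene Slc7a1 (6.93 ± 0.15 to 11.5 ± 0.66 FPKM, log2 change 0.70), the translation repressor gene Eif4ebp1 (0.61), the cysteinyl-tRNA synthetase gene Cars (0.51) and Sesn2 (0.46), a brake on mTORC1, rose most. Those that fell were Ddit4 (-0.73), also a brake on mTORC1, the stress factor Ddit3 (-0.49) and the seryl-tRNA synthetase gene Sars (-0.32). Ddit4 lost the call in edgeR with robust estimation (adjusted p = 0.0616), and Ddit3 without any 1 of the 4 libraries and in DESeq2 (adjusted p = 0.162). The cystine transporter gene Slc7a11, another Atf4 target, had 1.16 ± 0.10 FPKM in both groups. Atf3, Chac1, Nupr1 and Slc7a3 were in the table below the level tested, and Trib3 was not in it.

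Few genes of the folate pool passed. Of 15 carriers and pool enzymes 11 were tested, and 1 rose and 1 fell (18.2% called, against 33.0% of all genes), with a median log2 change of -0.03. Fpgs, which traps folate in cells as polyglutamates, rose from 3.04 ± 0.50 to 4.08 ± 0.27 FPKM (log2 change 0.40, edgeR adjusted p = 0.038), and Ggh, which removes glutamates, fell from 19.5 ± 1.59 to 15.9 ± 1.08 (-0.33, edgeR adjusted p = 0.018). Fpgs lost the call without control replicate 1, shRybp replicate 1 or shRybp replicate 2, and with all libraries in DESeq2 (adjusted p = 0.153) and in limma with either pseudocount (adjusted p = 0.0600 and 0.0620). Ggh lost it without control replicate 1 or shRybp replicate 2, and in DESeq2 (adjusted p = 0.0556). Sfxn1, the mitochondrial serine carrier (17.7 ± 0.66 and 18.5 ± 0.62 FPKM, log2 change 0.03, 95% interval -0.11 to 0.16), Slc25a32, the mitochondrial folate carrier (2.50 ± 0.28 and 2.44 ± 0.32) and Aldh1l2, the mitochondrial counterpart of Aldh1l1 (7.07 ± 0.51 and 7.06 ± 0.35, log2 change -0.04, 95% interval -0.22 to 0.15), did not pass.

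Genes that spend the carbon units on nucleotides rose or did not pass. Of 16 purine and thymidylate genes tested 9 rose (56.2%, against 16.3% of all genes), with a median of 0.24, and the lowest was Paics at -0.07, which did not pass (edgeR adjusted p = 0.44). Hprt, the purine salvage enzyme, which does not use folate, rose from 17.8 ± 1.30 to 37.2 ± 0.77 FPKM (log2 change 1.02, edgeR adjusted p = 5.5e-06), close to the change of Mthfd2. Impdh1 (0.54), the first enzyme toward guanine nucleotides, Tyms (0.48), the thymidylate synthase, and Ppat (0.40), the first enzyme of purine synthesis, followed, and Gart (0.33) and Atic (0.32), which take the formyl group from folate, rose as well.

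Users of glycine and formate outside nucleotide synthesis were lower in part. Of 9 tested 4 fell and 1 rose (55.6% called, against 33.0% of all genes), with a median of -0.19. Gatm (136 ± 0.99 to 96.7 ± 3.62 FPKM, log2 change -0.52, edgeR adjusted p = 4.4e-05) and Gamt (-0.45), the enzymes of creatine synthesis, fell, as did Gcsh (-0.37) and Amt (-0.31) of the glycine cleavage system. Gldc, the decarboxylase of that system, did not pass (23.1 ± 1.05 and 25.5 ± 0.54 FPKM, log2 change 0.11, edgeR adjusted p = 0.23). Gcat, a glycine-forming ligase of threonine breakdown, rose from 1.06 ± 0.16 to 1.77 ± 0.32 FPKM (0.71, edgeR adjusted p = 0.034) and lost the call without control replicate 2 or shRybp replicate 2, and in DESeq2 (adjusted p = 0.184).

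The methionine cycle takes methyl groups from folate, and transsulfuration, glutathione and taurine genes were listed with it. Of 17 tested 5 rose and 3 fell (47.1% called, against 33.0% of all genes), with a median of 0.03. Ahcy, which clears S-adenosylhomocysteine, rose from 26.6 ± 0.01 to 42.2 ± 1.74 FPKM (log2 change 0.63, edgeR adjusted p = 2.1e-05), while its divergent relatives Ahcyl2 (-0.51) and Ahcyl1 (-0.40) fell. Mtap (0.47), which salvages methylthioadenosine, and the S-adenosylmethionine synthetase subunit genes Mat2b (0.36) and Mat2a (0.27) rose, the latter pair not without control replicate 2 (edgeR adjusted p = 0.105 and 0.0559). The methionine synthase gene Mtr rose (0.26). Cdo1, a cysteine dioxygenase, fell from 10.7 ± 0.16 to 3.31 ± 0.08 FPKM (log2 change -1.72).

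Carriers and users of serine and glycine had 2 rises and 4 falls among 15 tested (40% called, near the 33.0% of all genes) and a median of -0.15. Slc1a5, a carrier of glutamine and small neutral amino acids, rose from 3.14 ± 0.01 to 5.78 ± 0.45 FPKM (log2 change 0.84, edgeR adjusted p = 8.0e-05), and Slc7a5, a carrier of large neutral amino acids, rose by 0.25, but not without shRybp replicate 2 (edgeR adjusted p = 0.185) or in limma after quantile normalization (adjusted p = 0.0926). The glycine transporter gene Slc6a9 fell from 20.2 ± 1.30 to 11.8 ± 1.84 FPKM (-0.80, edgeR adjusted p = 4.8e-05), and Serinc5 (-0.51), the serine racemase gene Srr (-0.47) and Slc1a4 (-0.35), a carrier of serine and alanine, fell with it. Slc6a9 and Srr overlap genes on the opposite strand (5939 bases with B4galt2 and 2984 with Tsr1), so their counts may include other reads.

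Enzymes of the amino acids that feed Asns and Psat1 moved in opposite directions. Of 14 tested 4 rose and 3 fell (50.0% called, against 33.0% of all genes), with a median of 0.15. Glud1, the glutamate dehydrogenase, fell from 270.2 ± 8.09 to 139 ± 5.21 FPKM (log2 change -0.99, edgeR adjusted p = 5.3e-07), the alanine aminotransferase gene Gpt2 fell (-0.81), and the glutamine synthetase gene Glul, another astrocyte enzyme, from 123 ± 6.10 to 78.2 ± 1.57 FPKM (-0.69). Bcat1 (0.37), Got1 (0.36), Odc1 (0.33) and Aldh18a1 (0.27) rose, the last not without shRybp replicate 2 (edgeR adjusted p = 0.128). Got1 makes aspartate, the precursor of asparagine. By the copy rule used for Phgdh, Ahcy, Mat2a, Glud1, Glul and Odc1 match other genes with counts in the table, so their values are uncertain. Tyms matches 174 genes, 36 of them in the table. The rule does not ask how much of a transcript is covered, so such matches may be shared stretches and not copies. The falls of Glud1, Glul, Slc6a9 and Gatm stood beside the fall of the astrocyte marker sum from 910.1 ± 20.6 to 389 ± 18.9 FPKM, whose part in them was not tested.

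**Figure D4:**
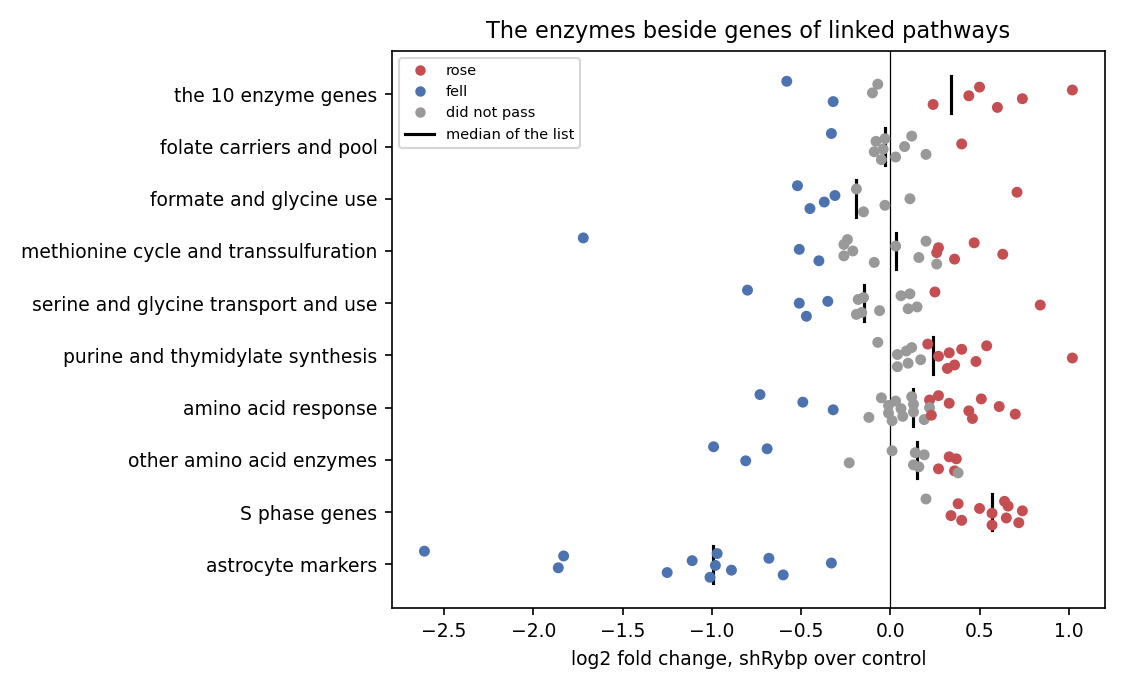
Log2 change of every tested gene of each list (points, red rose, blue fell, grey did not pass) with the list's median as a black bar. Purine and thymidylate genes have a median of 0.24 and none below -0.07, the folate pool genes a median of -0.03, S phase genes 0.57 and astrocyte markers -1.0.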

How the data were processed

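RNA of 4 libraries (2 control, 2 shRybp) was compared. Raw read counts per gene, which the authors deposited without normalization, were the input of the test. The FPKM values beside them were computed by the authors, and are the levels printed here. Per the submitters' processing notes, reads were placed on mm10. In the sources used here, the aligner, the counter and the handling of strand are not given.

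The test took the 12062 genes whose FPKM averaged 1 or more and was run with edgeR 4.0.16 (TMM, quasi-likelihood, two-sided) in R 4.3.3, with Benjamini-Hochberg adjustment over all of them and a threshold of 0.05. The SE is the absolute log2 change over the square root of F. The fit was also run on counts simulated from the control means and the spread of these data, with fewer genes changed than were called here. Such a run does not test the calls themselves. Coordinates are those of the table, and strands and overlaps came from GENCODE release M21 (same start and end for 10 of the 10 genes). Copies were sought with BLAST 2.17.0, and promoters are from RefSeq (GRCm38.p6). The alternatives used limma 3.58.1, DESeq2 1.42.0, other filters and pseudocounts (1 and 0.1), the replicate block and each library left out.

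The 10 genes and the lists were chosen with earlier results of these data known. From each list at most 4 genes with the largest rises and 4 with the largest falls are named. A few were added for their role after values were seen (Mthfd2l, Sfxn1, Slc25a32, Aldh1l2, Slc7a11, Eif2ak3, Eif2ak4, Mtr, Gart, Atic, Paics and Gldc). So were the markers Vim, Nes, Fabp7, Msi1, Sox2, Apoe and S100b. The values of 1 listed gene are not reported here.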

Additional observations from a re-analysis of the deposited data

How the results depend on the processing

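The 10 genes were refitted under 13 alternatives. Shmt1, Shmt2, Mthfd1l, Mthfd2, Aldh1l1 and Asns kept their direction and call in all of them, with log2 changes from 0.93 to 1.06 for Mthfd2, 0.68 to 0.79 for Mthfd1l, 0.57 to 0.64 for Asns, 0.46 to 0.54 for Shmt1, 0.33 to 0.53 for Shmt2 and -0.60 to -0.54 for Aldh1l1. Phgdh and Mthfd1 passed in none. Psat1 lost its call in 1 and Psph in 3, so that 5 or 6 of the genes rose and 1 or 2 fell when a library was left out, and 1 fell with DESeq2 size factors and Wald test. Over all genes, 1296 to 1640 rose when a library was left out, against 1970. No result that passed changed direction. The cause of these differences was not tested.

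Replicates share a number only: the deviations of same-numbered libraries correlated at 0.10 over 2 pairs. With the replicate block 2676 genes rose and 2652 fell, and the counts of 6 and 2 among the 10 genes were the same.

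The depth gave the 10 genes between 363 and 7727 counts per library, and SEs of 0.06 to 0.09. With 2 libraries a group the spread is taken largely from all genes.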
